A study of Homo sapiens with 12 samples.

Results

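The expression of 10 genes that mark injured or repairing kidney tubule cells was followed across 12 Affymetrix arrays: HAVCR1, LCN2, SPP1, CLU, VCAM1, CD44, CD24, KRT7, KRT18 and KRT19. They were chosen by name, with earlier results of these data known, and a probe set counted for a gene where the platform annotation gave that symbol alone. This gave 10 of the 19775 genes with such a probe set, represented by 35 probe sets of 41097. Of these 35 probe sets, 25 had a log2 value over 4 on at least 3 arrays, the filter used here for a measurable signal, and all 10 genes had at least 1 of them. The RNA came from HK-2 cells, an immortalized line of human proximal tubule epithelium grown in a hormone-supplemented medium. A compound named only as Ota in the labels was added at a high dose, or the vehicle alone as the control, and the cells were kept for 24 h or 72 h, with 3 arrays in each of the 4 groups. Its full name and concentration are not in the labels. The replicates are labelled as biological, but whether they came from separate cultures is not said, and the p-values then measure only how far these samples spread. The study sought expression signatures of kidney toxicity.

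In the kidney, tubule cells that survive an insult are known to lose parts of their transport programme and to take up an adaptive, partly dedifferentiated state while they repair. HAVCR1, also called KIM-1, and LCN2, also called NGAL, are induced in that state and are used as urinary markers of damage, and SPP1 (osteopontin) and CLU (clusterin) are secreted proteins that accompany it. VCAM1, CD44 and CD24 are surface adhesion molecules, and KRT7, KRT18 and KRT19 are intermediate filament keratins of simple epithelia that mark scattered or regenerating tubule cells.

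The markers did not move as a block. Against control cells and as deposited, at 24 h CD44, KRT7 and CLU rose (none of them with the arrays scaled to spike-in RNA) and VCAM1, KRT19, CD24 and KRT18 fell, and at 72 h CD44 and SPP1 rose and VCAM1, CD24, KRT7, KRT19 and CLU fell. HAVCR1 and LCN2, the markers most used for kidney damage, passed this test at neither time. Some other fits differed: HAVCR1 passed as a fall at both times with the spike-in scaling, and LCN2 as a rise at 24 h after centring or with a replicate block. CD44 was the largest rise at both times, from a mean of 9.99 to 11.77 at 24 h and from 8.40 to 11.79 at 72 h, and VCAM1 the largest fall, from 7.71 to 3.84 and from 8.17 to 4.74. At 24 h 3 of the 10 genes rose and 4 fell (limma, Benjamini-Hochberg adjusted p under 0.05), beside 61.3% of the 10729 tested genes called in either direction, 20.8% up and 40.5% down. At 72 h 2 rose and 5 fell, beside 60.1% of all tested genes called, 24.8% up and 35.2% down. A share of 7 in 10 is near these backgrounds and is no result about the markers as a set. The 3 Ota arrays lay wholly above or wholly below the 3 controls for 8 of the 10 genes at 24 h and for 8 at 72 h, beside 65.7% and 73.7% of all tested genes. The median log2 fold change of the 10 genes was -0.11 at 24 h and -0.89 at 72 h, beside -0.24 and -0.11 over all tested genes, and the median of its absolute size was 1.47 and 1.18, beside 0.72 and 0.73. Because the genes were chosen with earlier results of these data known, these medians are no evidence about the markers as a set.

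**Figure D1:**
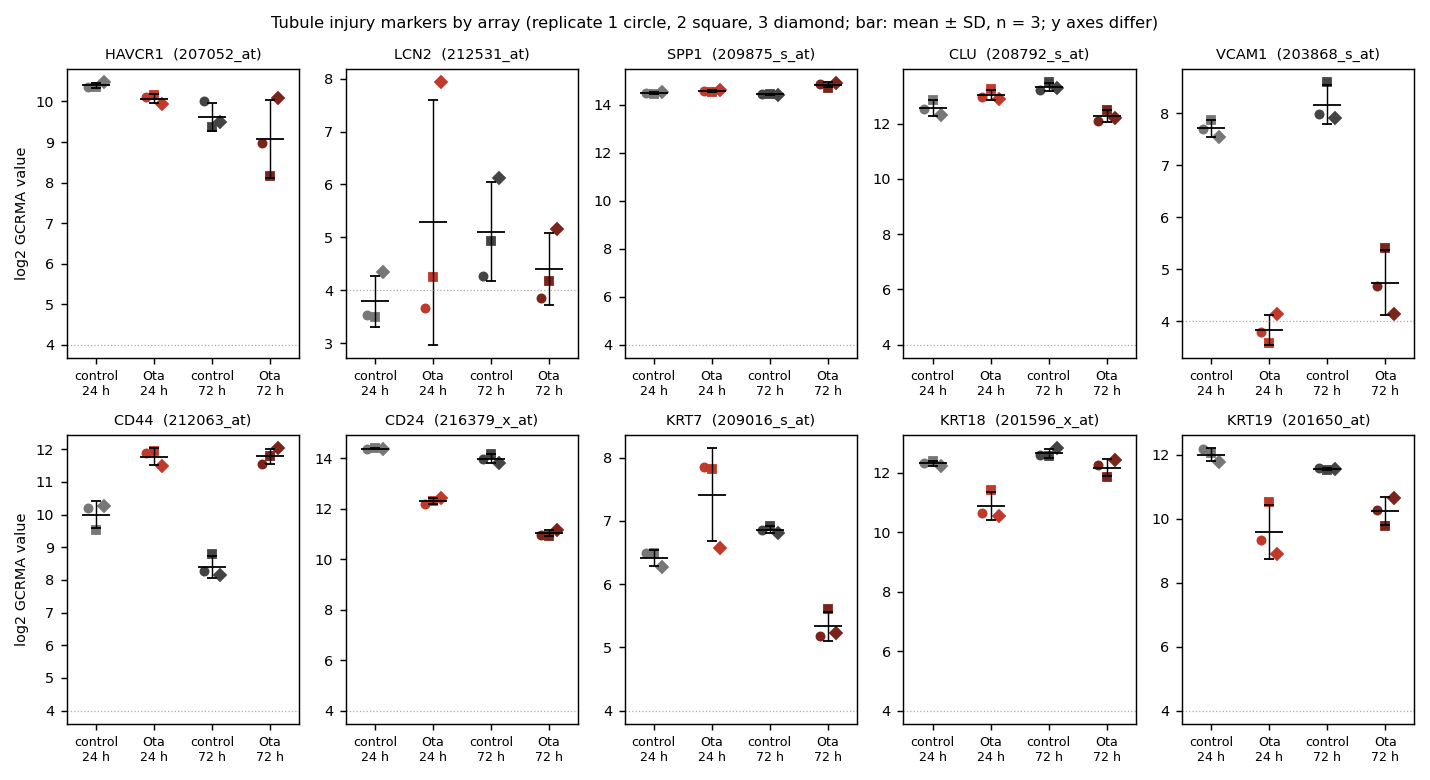
Log2 GCRMA value of the probe set that stood for each gene on each of the 12 arrays (points, with the replicate number as the shape), with the group mean and SD (bars, n = 3); the dotted line marks the filter value of 4, and the vertical axes differ between panels. VCAM1 and CD24 lie lower and CD44 lies higher on all Ota arrays than on the controls of the same time, and the 24 h Ota arrays of LCN2 spread from 3.66 to 7.93.

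Some array-wide values moved with the treatment, and their part in the results below was not tested. Ota minus control, the median of the tested genes differed by -0.56 at 24 h and -0.28 at 72 h, and the mean of the poly-A spike-ins, bacterial RNAs normally added before labelling, by 1.85 and 0.89. The mean of the 18S ribosomal RNA probe sets differed by 1.58 and 1.34. Each of these differences separated the 3 Ota from the 3 control arrays (two-sided exact permutation, p = 0.1, and 20 splits allow none smaller). Scaling therefore matters: relative to the values as deposited, quantile normalization moved the median fold change of all genes by 0.20 at 24 h and 0.07 at 72 h, centring each array on its median by 0.56 and 0.28, and scaling to the spike-ins by -1.85 and -0.89. In the same order and starting with the values as deposited, rises were 34.0%, 45.0%, 61.9% and 1.49% of all calls at 24 h and 41.3%, 44.4%, 56.1% and 7.63% at 72 h. VCAM1, CD24, KRT18 and KRT19 fell at 24 h under all 4 scalings, and no marker's rise at that time held under all 4. At 72 h CD44 rose and VCAM1, CD24, CLU, KRT7 and KRT19 fell under all 4. All 6 epithelial markers were over the filter, but of 12 proximal tubule markers with a probe set only PAX8 and SLC4A4 passed it, and LRP2, CUBN, SLC34A1 and AQP1 were under 4 on every array. None of 8 endothelial and none of 6 leukocyte markers passed the filter, while 4 of 8 fibroblast markers did (COL1A1, DCN, LUM and ACTA2). The mean level of the fibroblast list ran from 5.63 to 5.71 on the control and 5.57 to 5.89 on the Ota arrays at 24 h, and from 5.08 to 5.19 and 5.26 to 5.43 at 72 h. The part of these lists in the results was not tested. An array reads the pooled RNA of a culture, so fewer cells of a kind and less RNA per cell cannot be told apart.

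The 3 adhesion molecules showed the largest changes at 72 h. VCAM1, CD24 and CD44 have promoter sequence in the RefSeq-based table (GRCh38.p14), and the 250 bases before the annotated start are shown for these genes because they changed most of the 10 at 72 h, VCAM1 and CD24 downwards and CD44 upwards. Capitals mark matches, on either strand, to a kappa B type motif (GGG and CC with 5 bases of any kind between them) or a TATA box (TATAAA). CD24 has 3 listed starts, and the first is shown.
VCAM1, chr1:100719492-100719741, plus strand: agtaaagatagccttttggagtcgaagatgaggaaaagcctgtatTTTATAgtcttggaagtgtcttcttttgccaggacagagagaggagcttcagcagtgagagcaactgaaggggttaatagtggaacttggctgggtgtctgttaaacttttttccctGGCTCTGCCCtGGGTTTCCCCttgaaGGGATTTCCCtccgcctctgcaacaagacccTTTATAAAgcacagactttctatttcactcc
CD44, chr11:35138921-35139170, plus strand: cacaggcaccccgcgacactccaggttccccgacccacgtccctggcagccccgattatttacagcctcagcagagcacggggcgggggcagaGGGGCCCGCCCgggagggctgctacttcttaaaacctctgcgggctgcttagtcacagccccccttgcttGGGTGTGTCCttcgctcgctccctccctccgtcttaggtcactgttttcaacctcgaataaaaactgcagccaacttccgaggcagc
CD24, chr6:106975628-106975877, minus strand: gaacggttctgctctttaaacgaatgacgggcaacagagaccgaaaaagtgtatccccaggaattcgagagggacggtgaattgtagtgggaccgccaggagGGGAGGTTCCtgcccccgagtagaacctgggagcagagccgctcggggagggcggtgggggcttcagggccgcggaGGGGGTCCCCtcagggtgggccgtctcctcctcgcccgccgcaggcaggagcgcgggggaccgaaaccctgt
The VCAM1 promoter held kappa B type matches GGGTTTCCCC at 77 to 68 bases and GGGATTTCCC at 62 to 53 bases before the start, another on the minus strand at 88 to 79, and a TATA box at 29 to 24 bases. In CD44 matches lay at 157 to 147 bases, where 2 overlapped, and at 87 to 78 bases, and in CD24 at 148 to 139 and 72 to 63 bases. The kappa B type motif occurred in 54.4% and TATAAA in 10.7% of the 35116 promoter stretches of this length in the table, so a kappa B type match alone sets no gene apart. The match positions are a description of letters, and no binding was measured.

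VCAM1, the vascular cell adhesion molecule that binds integrin alpha 4 beta 1 on leukocytes and that also marks tubule cells with failed repair, fell at both times. At 24 h it read 7.71, 7.88 and 7.55 on control replicates 1, 2 and 3 and 3.80, 3.58 and 4.14 on the Ota arrays. The groups were far apart, and 2 of the 3 Ota arrays lay under 4, so this fold change has a near-background level as its lower term. Its log2 fold change was -3.87 ± 0.29 (SE), 14.6-fold lower (limma, adjusted p = 6.1e-07). At 72 h the controls read 7.98, 8.60 and 7.92 and the Ota arrays 4.68, 5.41 and 4.15, again without overlap and all over 4. That fold change was -3.42 ± 0.29, 10.7-fold lower (adjusted p = 1.7e-06), and the 2 effects did not differ past the threshold (difference 0.45 ± 0.42, 95% interval -0.46 to 1.36, adjusted p = 0.39), but did with the spike-in scaling (1.41, adjusted p = 0.0080). The 24 h side of this difference rests on the near-background Ota arrays. Within Ota-treated cells VCAM1 rose from 24 h to 72 h by 0.90 ± 0.29 (adjusted p = 0.019). This last call was lost without replicate 2 of the 24 h Ota arrays (0.77, adjusted p = 0.062) or of the 72 h Ota arrays (0.57, adjusted p = 0.077), after centring (0.63, adjusted p = 0.073), with no filter (adjusted p = 0.056) and with the 6 Ota arrays alone (adjusted p = 0.064), and the value was 1.83 with the spike-in scaling.

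CD24, a small mucin-like surface glycoprotein found on tubular progenitor-like cells, fell at both times and on all of its 6 probe sets. The brightest read 14.38, 14.39 and 14.36 on the 24 h controls and 12.19, 12.31 and 12.43 on the Ota arrays, and 13.98, 14.16 and 13.83 against 10.97, 10.94 and 11.16 at 72 h. The 24 h controls were nearly identical and the 72 h controls more spread, and the Ota arrays lay below the controls at both times with no overlap. The log2 fold change was -2.07 ± 0.14 at 24 h (4.19-fold lower, adjusted p = 1.9e-07) and -2.97 ± 0.14 at 72 h (7.82-fold lower, adjusted p = 2.0e-08). The fall was larger at 72 h by -0.90 ± 0.19 (adjusted p = 0.0025), but with the spike-in scaling this difference was 0.06 (adjusted p = 0.90). Over the 6 probe sets the fold change ran from -2.34 to -1.88 at 24 h and from -3.49 to -2.87 at 72 h, with all 6 past the threshold each time. The probe set that stood for the gene and 2 of the other 5 carry the suffix x, with which the manufacturer marks probes that can also match other sequences. The remaining 3 fell as well but carry the suffix s. No CD24 probe set was thus free of both suffixes, and without such probe sets CD24 could not be tested.

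CD44, the main receptor for hyaluronan and also a receptor for osteopontin, rose in Ota-treated cells as deposited. At 24 h it read 10.19, 9.52 and 10.26 on the controls and 11.87, 11.96 and 11.48 on the Ota arrays. All Ota arrays lay above all controls, with a log2 fold change of 1.78 ± 0.24 (3.43-fold higher, adjusted p = 5.8e-05), but with the spike-in scaling the value was -0.07 (adjusted p = 0.84). The 72 h controls read 8.26, 8.79 and 8.14 and the Ota arrays 11.56, 11.78 and 12.03. Here the gap was wider, at 3.39 ± 0.24 (10.5-fold higher, adjusted p = 4.4e-07), and it remained a rise with the spike-in scaling (2.50, adjusted p = 5.4e-06). The effect grew by 1.61 ± 0.34 between the times (adjusted p = 0.0025). From 24 h to 72 h this probe set fell by 1.59 ± 0.24 on the log2 scale in control cells (adjusted p = 5.9e-04), while in Ota-treated cells it read 11.77 ± 0.25 (SD, n = 3) and 11.79 ± 0.23.

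As deposited, the 8 CD44 probe sets over the filter rose together against the controls but parted over time. All 8 were higher with Ota at 24 h, by 0.83 to 1.78, and at 72 h, by 1.24 to 3.39, and all passed the threshold. With the spike-in scaling all 8 lay below 0 at 24 h, from -1.03 to -0.07, with 217523_at a called fall (adjusted p = 0.015), and at 72 h all 8 lay above 0 and 3 passed, the other 5 at 0.35 to 0.52 (adjusted p from 0.22 to 0.40). Of the 19407 probe sets tested 60.5% were called at 24 h (22.7% up, 37.7% down) and 58.8% at 72 h (27.2% up, 31.6% down). Probe sets 212063_at, the brightest, and 217523_at had the largest 72 h changes, at 3.39 and 2.83. The other 6 rose by 1.07 to 1.62 at 24 h and by 1.24 to 1.94 at 72 h, and 0 of these 6 passed for a change of the effect between times (-0.10 to 0.34, limma, lowest adjusted p = 0.54), beside 45.8% of all probe sets (28.3% up, 17.6% down). In Ota-treated cells all 6 fell from 24 h to 72 h, with values of -1.58 to -1.36, beside 57.6% of all probe sets called (36.5% up, 21.1% down), and all 6 fell in controls, with -1.92 to -1.36, beside 23.6% (11.9% up, 11.7% down). Over the same time with Ota 212063_at differed by 0.02 (95% interval -0.51 to 0.55) and 217523_at rose by 1.62 ± 0.26 (adjusted p = 2.4e-04). In controls 217523_at did not pass as a fall with the 6 (-0.38 ± 0.26, limma, adjusted p = 0.33). Probe set 217523_at read 4.60, 4.83 and 4.85 on the 24 h controls, 5.16, 5.98 and 5.63 on the 24 h Ota arrays, 4.47, 4.47 and 4.20 on the 72 h controls and 6.96, 6.89 and 7.79 on the 72 h Ota arrays. Its last group stands alone above the rest, and its control values lie near the filter value of 4. The difference within an array between 212063_at and the mean of the 6, whose own size has no meaning between probes, was 2.24 ± 0.51 (SD, n = 3), 2.70 ± 0.52 and 2.23 ± 0.20 in the 24 h control, 24 h Ota and 72 h control arrays and 4.21 ± 0.29 in the 72 h Ota arrays. For 217523_at the difference was -2.99 ± 0.25, -3.48 ± 0.61 and -1.78 ± 0.24 in the same order and -0.37 ± 0.54 in the 72 h Ota arrays. For this probe set it thus also moved over time in the controls. This split into 6 and 2 was made after the values were seen, so the calls of the 6 over time are no test of it. With the mean over its probe sets as the gene's value, CD44 changed its effect between times by 0.53 (adjusted p = 0.27) and fell in Ota-treated cells by 0.91 (adjusted p = 0.012), so the growth of its effect rests on which probe set is read.

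**Figure D2:**
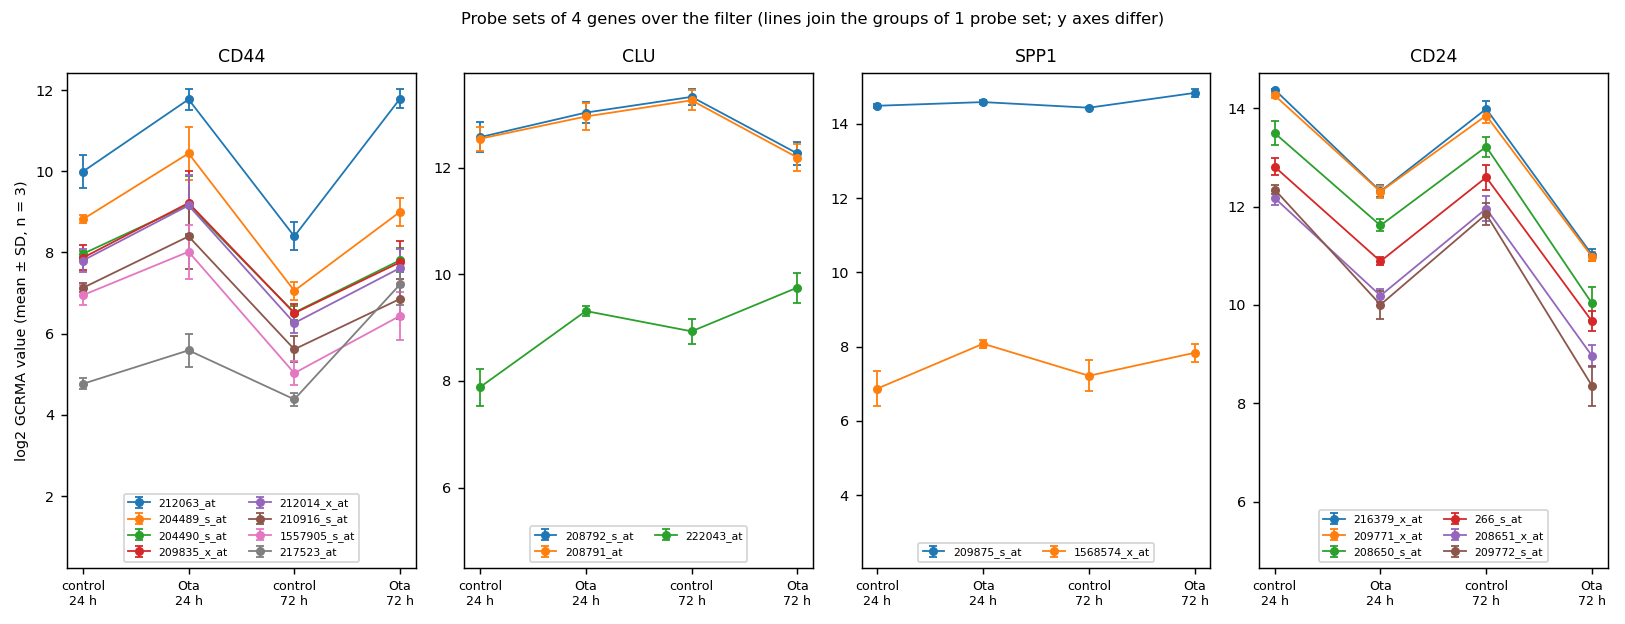
Group means with SD (n = 3 arrays) of every probe set over the filter for CD44, CLU, SPP1 and CD24, on the log2 GCRMA scale with the 4 groups along the horizontal axis; lines join the means of 1 probe set and do not mark a time course. For CD44, 212063_at and 217523_at keep or gain level in the 72 h Ota group where the other 6 drop, and for CLU, 222043_at lies above its 72 h control where the other 2 lie below.

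HAVCR1 encodes KIM-1, a phosphatidylserine receptor with which injured tubule cells take up dead neighbours. Its probe set read 10.36, 10.37 and 10.47 on the 24 h controls and 10.10, 10.17 and 9.95 on the Ota arrays. All 3 Ota arrays lay slightly below the controls, but the log2 fold change of -0.33 ± 0.37 did not pass (95% interval -1.13 to 0.48, adjusted p = 0.46), and after centring it was 0.24. At 72 h the controls read 10.01, 9.37 and 9.49 and the Ota arrays 8.98, 8.16 and 10.08. Ota replicate 3 was the highest of these 6 arrays and the other Ota arrays were the lowest. The fold change of -0.55 ± 0.37 did not pass either (95% interval -1.35 to 0.26, adjusted p = 0.22). Without Ota replicate 3 of 72 h it was -1.05 (adjusted p = 0.0045), and with the spike-in scaling it passed as a fall at both times (-2.18 and -1.43, adjusted p = 2.4e-04 and 0.011). In Ota-treated cells HAVCR1 fell by 1.00 ± 0.37 on the log2 scale from 24 h to 72 h (adjusted p = 0.034), with overlapping arrays. That call was lost without each of 4 arrays in turn, Ota replicates 1 and 2 of 24 h and 1 and 2 of 72 h, with adjusted p from 0.074 to 0.13, and without Ota replicate 2 of 72 h the value was -0.54. It was also lost with no filter (adjusted p = 0.094), with the 6 Ota arrays alone (adjusted p = 0.11) and with the spike-in scaling, where the value was -0.07 (adjusted p = 0.89). No alternative that was run called a rise of HAVCR1 with Ota at either time.

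LCN2 encodes neutrophil gelatinase-associated lipocalin, a secreted protein that binds iron-carrying siderophores. It was the weakest of the markers, over 4 on 8 of the 12 arrays. The 24 h controls read 3.52, 3.50 and 4.35 and the Ota arrays 3.66, 4.26 and 7.93. Ota replicate 3 stood far above the other arrays while the other Ota arrays lay within the range of the controls. A log2 fold change of 1.49 ± 0.90 did not pass (95% interval -0.48 to 3.46, adjusted p = 0.17). Replicate 3 was the highest array in 4 of 4 groups, and with the replicate number as a block over all 12 arrays the same change passed (adjusted p = 0.039). That block also joins 24 h with 72 h, where same-numbered Ota arrays correlated at r = 0.15, -0.02 and -0.05. Same-numbered control arrays of the 2 times correlated at r = 0.22, 0.08 and 0.17, and the labels give no pairing. The 24 h change also passed without Ota replicate 1 of 24 h (2.30, adjusted p = 0.049) and after centring (2.05, adjusted p = 0.047). Both of these fits keep Ota replicate 3. With the spike-in scaling the change was -0.36. The 72 h controls read 4.27, 4.93 and 6.12 and the Ota arrays 3.85, 4.18 and 5.17. These groups overlapped, and the fold change was -0.71 ± 0.90 (95% interval -2.68 to 1.26, adjusted p = 0.52). The effect differed between the times by -2.20 ± 1.27 (adjusted p = 0.17, or 0.040 with the replicate block).

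SPP1 encodes osteopontin, a secreted phosphoprotein that binds integrins and CD44. Its brighter probe set read 14.49, 14.44 and 14.54 on the 24 h controls and 14.59, 14.54 and 14.63 on the Ota arrays, and 14.44, 14.45 and 14.42 against 14.87, 14.72 and 14.92 at 72 h. These values are close to the highest on each array, which ran from 15.44 to 15.77, and the groups overlapped at 24 h but not at 72 h. The log2 fold change was 0.10 ± 0.12 at 24 h (adjusted p = 0.48), where it did not pass but did after centring (0.66, adjusted p = 6.6e-04), and 0.40 ± 0.12 at 72 h, 1.32-fold higher (adjusted p = 0.011), or -0.49 with the spike-in scaling (adjusted p = 0.12). The dimmer probe set, 1568574_x_at, read 6.77, 6.48 and 7.38 on the 24 h controls and 8.20, 8.06 and 7.99 on the Ota arrays. It rose at 24 h by 1.21 ± 0.26 (adjusted p = 0.0016) and was higher at 72 h by 0.62 ± 0.26 without passing (adjusted p = 0.056). As deposited, each probe set thus passed at the time when the other did not. The dimmer one also passed at 72 h after quantile normalization (adjusted p = 0.024) and centring (adjusted p = 0.0067), and with the spike-in scaling it was -0.64 at 24 h (adjusted p = 0.093) and -0.27 at 72 h (adjusted p = 0.51).

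CLU encodes clusterin, a secreted chaperone that binds misfolded proteins. The probe set that stood for it read 12.54, 12.87 and 12.31 on the 24 h controls and 12.96, 13.25 and 12.88 on the Ota arrays. The Ota arrays all lay above the controls, though by little for the closest pair. The log2 fold change was 0.46 ± 0.18 (1.38-fold higher, adjusted p = 0.045), a call lost after quantile normalization (adjusted p = 0.076), in 9 of the 12 fits with 1 array left out (adjusted p up to 0.17, without control replicate 3 of 24 h) and turned to -1.39 (adjusted p = 4.3e-05) with the spike-in scaling. At 72 h the controls read 13.21, 13.49 and 13.27 and the Ota arrays 12.09, 12.51 and 12.20. The order was now the opposite, without overlap, at -1.06 ± 0.18 (2.09-fold lower, adjusted p = 3.4e-04), a fall under all 4 scalings. The effect changed between the times by -1.52 ± 0.26 (adjusted p = 6.0e-04), but by -0.56 (adjusted p = 0.17) with the spike-in scaling. Over the same time CLU rose in control cells by 0.75 ± 0.18 (adjusted p = 0.010) and fell in Ota-treated cells by 0.77 ± 0.18 (adjusted p = 0.0034). The first of these calls was lost (adjusted p = 0.067) and the second turned to 0.16 (adjusted p = 0.56) with the spike-in scaling.

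The 3 CLU probe sets over the filter disagreed at 72 h. Probe set 208791_at moved like the first, by 0.42 at 24 h (adjusted p = 0.082) and -1.07 at 72 h (adjusted p = 5.0e-04). Probe set 222043_at read 7.61, 7.76 and 8.28 on the 24 h controls and 9.26, 9.41 and 9.26 on the Ota arrays, and 8.75, 9.19 and 8.85 against 9.95, 9.43 and 9.87 at 72 h. It was higher with Ota at both times without overlap, by 1.43 ± 0.21 (adjusted p = 9.4e-05) and 0.82 ± 0.21 (adjusted p = 0.0048). With the spike-in scaling both rises were lost and turned, to -0.42 (adjusted p = 0.22) and -0.07 (adjusted p = 0.86), so that all 3 probe sets lay below 0 at 72 h. Under the other 3 scalings the direction of CLU at 72 h depended on the probe set, and which transcripts each probe set matches was not examined. Of all 25 marker probe sets over the filter 12 rose and 9 fell at 24 h, beside 60.5% of all tested probe sets called (22.7% up, 37.7% down). At 72 h 10 rose and 11 fell, beside 58.8% (27.2% up, 31.6% down). CD44 alone gave 8 of the rises and CD24 alone 6 of the falls at each time, so these counts mostly repeat those genes. Scaled to the spike-ins, 0 rose and 15 fell at 24 h, beside 93.3% of all probe sets called (2.16% up, 91.1% down), and 3 rose and 13 fell at 72 h, beside 65.9% (6.88% up, 59.0% down). The other 10 probe sets stayed between 1.80 and 3.78 on all arrays.

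KRT18 is the type I keratin that pairs with KRT8 in simple epithelia, and its only probe set carries the suffix x. It read 12.34, 12.39 and 12.22 on the 24 h controls and 10.66, 11.42 and 10.54 on the Ota arrays, which all lay below. It fell by 1.45 ± 0.23 on the log2 scale (2.72-fold lower, adjusted p = 1.8e-04). The 72 h controls read 12.59, 12.55 and 12.82 and the Ota arrays 12.25, 11.84 and 12.42. The Ota arrays again lay below all controls, but the difference of -0.48 ± 0.23 did not pass (95% interval -0.98 to 0.02, adjusted p = 0.087); it passed after quantile normalization (-0.56, adjusted p = 0.043), with the spike-in scaling (-1.37, adjusted p = 0.0013), with the 6 arrays of 72 h alone (adjusted p = 0.044) and without Ota replicate 2 of 24 h (adjusted p = 0.019). In Ota-treated cells KRT18 rose from 24 h to 72 h by 1.30 ± 0.23 (adjusted p = 4.5e-04), a rise under all 4 scalings. The effect differed between the times by 0.96 ± 0.32 (adjusted p = 0.027), a call lost after centring (adjusted p = 0.15) and in 8 of the 12 fits with 1 array left out (adjusted p up to 0.063).

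KRT19, the smallest keratin of simple epithelia and a marker of ductal and progenitor-like cells, fell at both times. The controls read 12.16, 12.05 and 11.77 at 24 h and the Ota arrays 9.32, 10.52 and 8.88. Ota replicate 2 was the least changed, as it was for KRT18, and no arrays overlapped. This was a log2 fold change of -2.42 ± 0.35 (5.36-fold lower, adjusted p = 9.1e-05). At 72 h the controls read 11.57, 11.51 and 11.54 and the Ota arrays 10.27, 9.78 and 10.66, so the control spread was very small. That fold change was -1.31 ± 0.35 (2.48-fold lower, adjusted p = 0.0066). The effects differed by 1.11 ± 0.49, which did not pass (adjusted p = 0.080) but did without Ota replicate 2 of 24 h (1.59, adjusted p = 0.0019) or of 72 h (1.34, adjusted p = 0.048) and with the spike-in scaling (2.08, adjusted p = 0.0045). This difference also passed with array weights (1.48, adjusted p = 9.6e-06), but limma warned that these did not converge. They called 73.9% of all genes for this comparison, against 49.5% without them.

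KRT7, a type II keratin of ductal epithelia, turned from a rise to a fall. At 24 h the controls read 6.49, 6.49 and 6.27 and the Ota arrays 7.85, 7.82 and 6.57. Ota replicates 1 and 2 were clearly higher, and replicate 3 lay just above the controls. KRT7 had a log2 fold change of 0.99 ± 0.29 (1.99-fold higher, adjusted p = 0.00997), which did not pass with the 6 arrays of 24 h alone (adjusted p = 0.051) and was -0.86 (adjusted p = 0.0066) with the spike-in scaling. At 72 h the controls read 6.85, 6.92 and 6.81 and the Ota arrays 5.18, 5.60 and 5.22, all well below. The fold change was -1.52 ± 0.29 (2.88-fold lower, adjusted p = 6.5e-04). The change of the effect, -2.52 ± 0.40 (adjusted p = 4.3e-04), and the fall in Ota-treated cells from 24 h to 72 h, -2.08 ± 0.29 (adjusted p = 8.2e-05), passed under all 4 scalings. Only 1 of 4 KRT7 probe sets was over the filter.

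**Figure D3:**
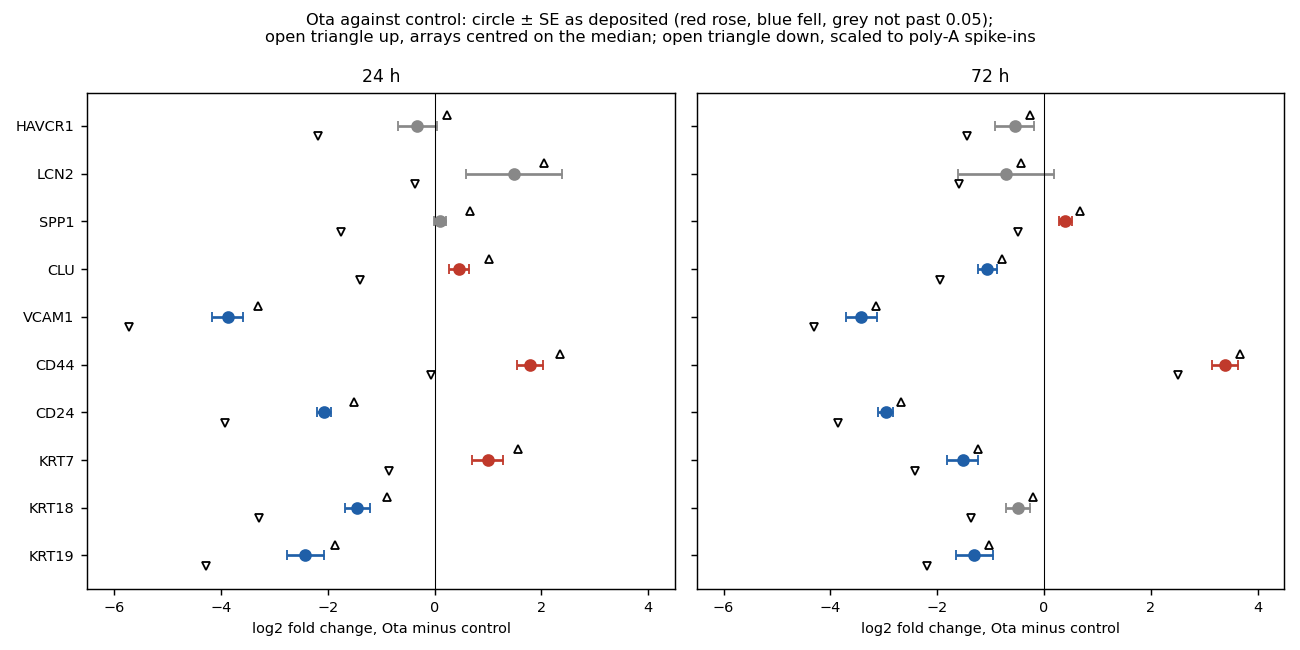
Log2 fold change of the 10 markers, Ota minus control, at 24 h (left) and 72 h (right), as deposited (circles with SE; red rose, blue fell, grey did not pass an adjusted p of 0.05), after centring on the array median (triangles up) and with the poly-A spike-in scaling (triangles down). VCAM1, CD24 and KRT19 lie left of 0 in both panels at all 3 symbols, while the 24 h rises of CD44, KRT7 and CLU lie left of 0 (-0.07, -0.86 and -1.39) with the spike-in scaling.

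Comparisons over time within control cells and within Ota-treated cells called 2 and 6 of the 10 markers, each near the share of all genes. From 24 h to 72 h 1 marker rose (CLU) and 1 fell (CD44) in controls, beside 25.5% of all tested genes called, 12.2% up and 13.3% down. With the 6 control arrays alone 7 markers were called, beside 40.2% of all genes, and the 24 h and 72 h controls did not overlap for 8 of the 10 markers, beside 53.5%. In Ota-treated cells 2 rose (VCAM1 and KRT18) and 4 fell (HAVCR1, CLU, CD24 and KRT7), beside 60.3% called, 37.0% up and 23.3% down, and the arrays did not overlap for 6 markers, beside 62.1%. With the spike-in scaling 5 rose there (VCAM1, KRT18, KRT19, SPP1 and CD44) and 1 fell (KRT7), beside 75.4% called with 91.3% of the calls up, and CD24 (-0.36, adjusted p = 0.25), HAVCR1 and CLU lost their calls. The effect of Ota differed between the times for 5 markers, with CD44 and KRT18 shifted up and CLU, CD24 and KRT7 down, beside 49.5% of all tested genes, 29.6% up and 19.9% down. With the spike-in scaling 5 shifted up (VCAM1, KRT19, SPP1, CD44 and KRT18) and 1 down (KRT7), beside 59.9% of all genes called with 91.9% of the calls up. These comparisons share arrays with the Ota comparisons above. In controls CD24 was lower at 72 h by -0.39 ± 0.14 without passing (adjusted p = 0.054).

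Molecules that bind, process or signal with the markers, a list of 40 genes of which 25 could be tested, held called genes in both directions. At 24 h 6 rose and 9 fell, beside 61.3% of all genes called, or 1 and 23 when scaled to the spike-ins and 11 and 5 after centring, with a median log2 fold change of -0.11 beside -0.24 over all genes. By the fitted value the first were ITGA9, an integrin subunit that binds osteopontin and VCAM1 (4.54 ± 0.33), RDX, or radixin, which links the CD44 tail to actin (-3.60 ± 0.16), and HAS3, a hyaluronan synthase (-2.68 ± 0.38). ITGA9 passed the filter only through the 24 h Ota arrays (mean 6.90), its control mean of 2.36 lies under the filter value, and neither the size of its difference nor its rank can be read from these values. At 72 h 10 rose and 8 fell, beside 60.1% of all genes called (3 and 12 when scaled to the spike-ins), with a median of 0.39 beside -0.11. The largest were VLDLR, a lipoprotein receptor that can bind clusterin (-3.45 ± 0.26), ESRP1, an epithelial splicing factor that acts on CD44 transcripts (-3.14 ± 0.26), and HAS3 (-2.69 ± 0.38). ESRP1 read 7.51 ± 0.22 (SD, n = 3) in 72 h controls and 4.37 ± 0.33 in Ota-treated cells, and at 24 h it had fallen by 1.67 ± 0.26 on the log2 scale, from 5.44 to 3.77. The 24 h Ota mean is under the filter value and the 72 h Ota mean near it, so both falls have a near-background lower term. From 24 h to 72 h ESRP1 rose in controls by 2.07 ± 0.26 (limma, adjusted p = 1.6e-04), and with Ota it differed by 0.60 ± 0.26 (adjusted p = 0.063). Named after its values were seen, KRT8, the partner of KRT18, read 11.43 ± 0.61 against 11.56 ± 0.62 at 24 h (0.13 ± 0.34, adjusted p = 0.76) and 10.68 ± 0.14 against 11.28 ± 0.35 at 72 h (0.60 ± 0.34, adjusted p = 0.15), so as deposited it passed at neither time. Also named after its values were seen, ICAM1, another adhesion molecule that binds leukocyte integrins, differed by 0.24 ± 0.23 at 24 h (adjusted p = 0.40) and rose by 1.31 ± 0.23 at 72 h (adjusted p = 4.5e-04). For KRT8 and ICAM1 only the values as deposited are given, and their dependence on the scaling was not examined.

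Other genes known from injured tubules, 38 listed and 25 tested, also split. At 24 h 9 rose and 4 fell, again beside 61.3% of all genes called, or 0 and 23 when scaled to the spike-ins and 16 and 2 after centring, with a median of 0.26 beside -0.24. CCN2, a matricellular growth factor gene (-2.38 ± 0.55), and SOX4, a transcription factor gene (-2.29 ± 0.25), fell, and MMP7, the gene of the metalloprotease matrilysin, lay 1.48 ± 0.20 above controls, at -0.37 when scaled to the spike-ins. At 72 h 9 rose and 5 fell, beside 60.1%, or 1 and 12 when scaled to the spike-ins, with a median of 0.09 beside -0.11. MMP7 rose (2.28 ± 0.20), and the complement gene C3 (-2.93 ± 0.36) and SOX4 (-2.50 ± 0.25) fell. Of 16 other epithelial keratins 5 could be tested. KRT20 (-2.23 ± 0.52) and KRT10 (-2.18 ± 0.16) fell at 24 h and again at 72 h (-2.81 ± 0.52 and -1.42 ± 0.16), while KRT15 was higher by 2.13 ± 0.44 and 1.44 ± 0.44, or 0.28 and 0.55 without passing under the spike-in scaling. Its control means of 3.68 and 3.39 lie under the filter value, which it passed only through the Ota groups (5.82 and 4.83), so these sizes have no measured lower term. KRT80 made the second rise at 24 h, and at 72 h 1 of the 5 rose and 2 fell.

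**Figure D4:**
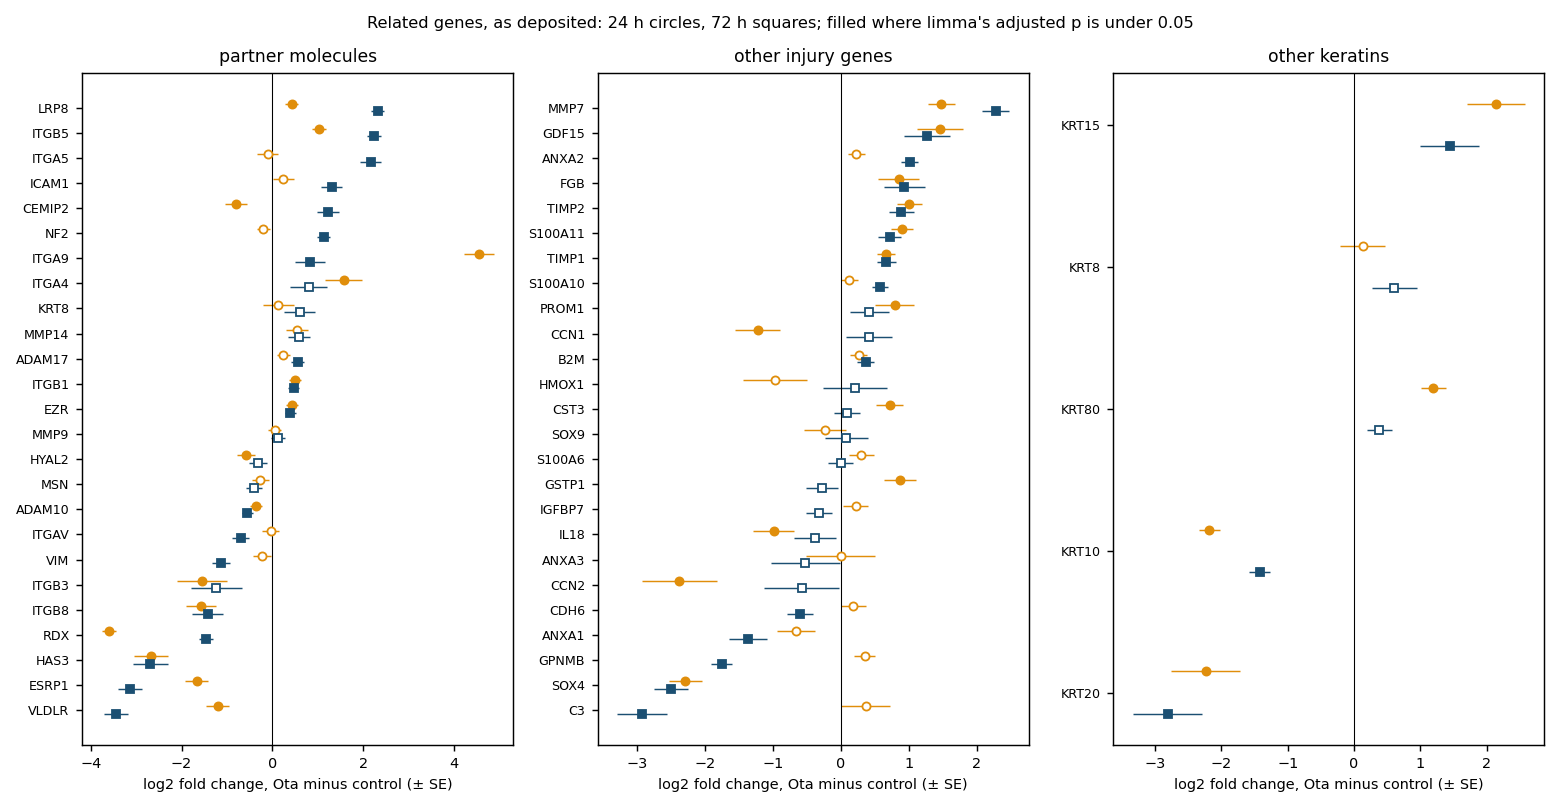
Log2 fold change with SE, Ota minus control, as deposited, of every tested gene on the lists of partner molecules, other tubule injury genes and other keratins, at 24 h (circles) and 72 h (squares), filled where limma's adjusted p is under 0.05. Each list holds genes on both sides of 0 at both times; with the spike-in scaling 1, 0 and 0 genes of the 3 lists rose at 24 h.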

How the data were processed

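RNA of 12 HK-2 samples was read on 1-colour Affymetrix arrays. The authors deposited log2 GCRMA values per probe set; per the submitters' processing notes they used GCRMA (no version), and the arrays normalized together, later filters and genome build are not given in the sources used here. Values were used as deposited, and 0 columns belonged to other series. Of 54675 probe sets 41097 had 1 gene symbol, 1801 several and 11777 none; 41043 of the first matched a current gene record and 0 symbols were updated. A probe set entered with a value over 4 on at least 3 arrays, and the brightest by mean stood for its gene, leaving 10729 genes, 5153 with several. Limma 3.58.1 in R 4.3.3 fitted 4 group means to all 12 arrays (8 residual and 3.561 prior degrees of freedom), with two-sided tests and Benjamini-Hochberg adjustment over all genes, or over all 19407 probe sets for single probe sets. The median SE of a log2 fold change was 0.212, and the number of arrays limits the precision. The fit was tested on simulated data.

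All 10 markers were named with every probe set, and each gene list by at most 3 genes per comparison, those past the threshold that changed most. A gene so named for one comparison was also followed in the others as deposited. Genes named outside the rule are marked, except the cell type markers named beside the filter counts, which were also named outside it. The members and lists were chosen with earlier results of these data known. Same-numbered arrays of Ota and control deviated together at 24 h (r = 0.12, 0.23 and 0.27 for replicates 1, 2 and 3). At 72 h replicates 2 and 3 did so (0.14 and 0.19) but replicate 1 did not (-0.05). The labels do not say that the numbers pair cultures, so pairing is unsettled, and the main fit used no block. Alternatives were quantile normalization, centring, spike-in scaling, other filters, probe set choices, a replicate block, other variance models, array weights, a stricter threshold, 6 arrays alone and leaving out each array. The scaling and block alternatives for the counts of marker probe sets were chosen after seeing the data. Promoter sequences come from a RefSeq-based table (GRCh38.p14), which was used for 6 of the 10 markers.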

Additional observations from a re-analysis of the deposited data

Results flagged for a closer look

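For 5 markers and for 21 of the 54 tested genes of the lists (12 up, 9 down, beside 49.5% of all tested genes), the effect of Ota at 72 h differed from that at 24 h by a test of the difference itself (limma's interaction contrast, adjusted p under 0.05, with 3 arrays per group). CLU (-1.52), CD24 (-0.90) and KRT7 (-2.52) shifted down and CD44 (1.61) and KRT18 (0.96) shifted up, in log2 units of the 72 h effect minus the 24 h effect. Of these 5, CD44 and KRT7 passed under all 4 scalings, CD24 was 0.06 and CLU -0.56 with the spike-in scaling, and KRT18 was 0.68 (adjusted p = 0.15) after centring. For CD44 this rests on the probe set read: 2 of its 8 passed, the other 6 lay at -0.10 to 0.34, and the mean over probe sets gave 0.53 (limma, adjusted p = 0.27). With the spike-in scaling the difference also passed for VCAM1 (1.41, adjusted p = 0.0080), KRT19 (2.08, adjusted p = 0.0045) and SPP1 (1.26, adjusted p = 0.011), the last also after quantile normalization (adjusted p = 0.035), so that 5 markers shifted up and 1 down. Of the 21 list genes, the 11 named for their size in this or an Ota comparison are given below.

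Among the partner molecules, the effect on the integrin genes ITGA9 and ITGA5 shifted by -3.72 and 2.27, that on VLDLR by -2.24, that on RDX by 2.13 and that on ESRP1 by -1.47. Scaling to the spike-ins moved the median shift of all tested genes by 0.96. The shifts of RDX and ESRP1 are given as deposited only, and their dependence on the scaling was not examined. The Ota means of ESRP1, 3.77 at 24 h and 4.37 at 72 h, lie near the filter value. ITGA9 lay at 2.36 in 24 h controls, 6.90 in 24 h Ota, 2.37 in 72 h controls and 3.19 in 72 h Ota cells, so it stood over the filter value as a group mean in the 24 h Ota cells alone, and its shift has no readable size. RDX was lower by 3.60 at 24 h and by 1.47 at 72 h on the log2 scale. ITGA5, which with integrin beta 1 forms a fibronectin receptor, differed by -0.11 at 24 h and rose by 2.17 at 72 h.

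Among the other injury genes, C3 shifted by -3.29, GPNMB by -2.11, CCN1 by 1.64 and MMP7 by 0.80. The shift of MMP7 is likewise given as deposited only. C3 read 10.63 in control and 10.99 in Ota-treated cells at 24 h, and 11.08 and 8.15 at 72 h. The keratin genes KRT80 and KRT10 shifted by -0.82 and 0.76, and KRT80 was 0.15 with the spike-in scaling. KRT10 lost its call after quantile normalization (0.51, limma, adjusted p = 0.084) and after centring (0.48, adjusted p = 0.12). Groups of 3 arrays were not tested for outlying samples.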

How the results depend on the processing

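The counts of called markers, 7 at 24 h, 7 at 72 h, 5 for the change of effect, 2 over time in controls and 6 over time in Ota-treated cells, stayed within 1.5 times under most alternatives. Without probe sets marked x or s, which left 5 of 10 markers, they were 2, 3, 2 and, over time with Ota, 2. In controls the count was 1 with the spike-in scaling or an adjusted p under 0.01, 7 with array weights (limma warned that these did not converge) or 6 arrays alone, and 4 without replicate 3 of the 24 h Ota arrays. Leaving out each array gave 6 to 7, 7 to 8, 4 to 6, 2 to 4 and 4 to 6. The replicate block gave 8, 7, 6, 2 and 6, adding LCN2 at 24 h and in the change of effect, and changed no other call of a marker. Marker probe sets called were 21 at each time, or 15 and 16 with the spike-in scaling.

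Directions turned in these cases. With the spike-in scaling at 24 h LCN2 was -0.36, SPP1 -1.75, CLU -1.39, CD44 -0.0706, KRT7 -0.86 and MMP7 -0.37, SPP1 was -0.49 at 72 h, and the changes of effect were 0.74 for HAVCR1, 0.0621 for CD24 and 0.15 for KRT80. Over time with Ota, that scaling gave LCN2 0.0407 and CLU 0.16. Centring gave HAVCR1 0.24 at 24 h, and over time with Ota SPP1 -0.0308 and CD44 -0.26. The mean over probe sets gave SPP1 -0.14 for the change of effect and 0.15 over time in controls, and CD44 -0.91 over time with Ota. Array weights gave LCN2 0.33 and CD44 -0.25 there. Leaving out each array, HAVCR1 ran from -0.72 to 0.24 for the change of effect (0.24 without Ota replicate 2 of 72 h), and over time with Ota LCN2 ran from -1.69 to 0.44 (0.44 without Ota replicate 3 of 24 h) and CD44 from -0.13 to 0.13 (-0.13 and -0.10 without Ota replicate 3 of 24 h and of 72 h). The cause was not tested.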

Other observations

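Of the proximal tubule list, 2 of the 12 genes with a probe set could be measured. PAX8, a transcription factor gene of kidney epithelium, read 10.08 ± 0.10 (SD, n = 3) in 24 h controls and 7.54 ± 0.35 with Ota, and 9.58 ± 0.14 and 7.99 ± 1.05 at 72 h. It fell by 2.53 ± 0.40 (limma, adjusted p = 1.7e-04) and 1.59 ± 0.40 (adjusted p = 0.0045) on the log2 scale. SLC4A4, the basolateral sodium bicarbonate cotransporter of the proximal tubule, fell by 2.22 ± 0.21 at 24 h (adjusted p = 3.2e-06) and by 3.52 ± 0.21 at 72 h (adjusted p = 1.2e-07). CDH1, which encodes E-cadherin, differed by -0.29 ± 0.28 at 24 h (adjusted p = 0.39) and fell by 3.18 ± 0.28 at 72 h, from 8.80 ± 0.28 to 5.62 ± 0.37 (adjusted p = 2.0e-06). EPCAM, another epithelial adhesion molecule, passed at neither time as deposited (0.34 ± 0.18, adjusted p = 0.13, and -0.10 ± 0.18, adjusted p = 0.65). CLDN4, a tight junction gene, differed by -0.26 ± 0.24 at 24 h (limma, adjusted p = 0.37) and fell by 0.94 ± 0.24 on the log2 scale at 72 h (adjusted p = 0.0048). These 5 genes were named after their values were seen, and their values are given as deposited only. Centring moved the median 24 h fold change of all genes by 0.56 and the spike-in scaling by -1.85. The calls of these 5 genes under those scalings were not examined.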
